A study of Mus musculus with 2 samples.

Results

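The genes of glutamate transport and clearance described here are 5 of the 27998 genes measured: Slc17a6 and Slc17a7, Slc1a2 and Slc1a3, and Glul. They were taken as named genes, and their raw counts of unique molecular identifiers (UMIs, each marking 1 captured RNA molecule) were read across cell groups set by other genes. The samples were 1 library of wild type (WT) mice and 1 library of STINGf/f;Nestin-Cre (cKO) mice, both C57BL/6 at postnatal day 0. In the cKO mice a floxed STING gene is deleted by Cre under the Nestin promoter, which acts in neural progenitors and so reaches their descendants. The labels name telencephalic tissue and the study's methods cerebral cortex, dissociated with papain before droplet capture on the 10x Chromium system. The number of animals behind each library is not given in the sources used here, and the labels give neither a Cre driver nor a floxed allele for the control. The study's text also calls its control floxed (STINGfl/fl), so the genotype of this library beyond the label WT is uncertain. With 1 library in each group, every difference is one between libraries with no replicate check, no test was run, and intervals cover counting error only.

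Glutamate is the main excitatory transmitter of the cortex. VGLUT2, encoded by Slc17a6, and VGLUT1, encoded by Slc17a7, load it into synaptic vesicles, and projection neurons of the cortex are known to pass from the first to the second as they mature. After release, glutamate is taken up by the astroglial transporters GLT-1 (Slc1a2) and GLAST (Slc1a3), the latter also a classic marker of radial glia, and glutamine synthetase (Glul) then turns it into glutamine, which neurons take back. Glul is also known as a target of glucocorticoid hormones.

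In the annotation of GRCm38 all 5 are protein-coding genes. Slc17a6 (ENSMUSG00000030500) lies on chromosome 7 from 51622006 to 51671119 and Slc17a7 (ENSMUSG00000070570) on the same chromosome from 45163949 to 45176142, both on the plus strand. Slc1a2 (ENSMUSG00000005089) spans 102658659 to 102790784 of chromosome 2 on the plus strand, and Slc1a3 (ENSMUSG00000005360) spans 8634124 to 8710764 of chromosome 15 on the minus strand. Glul (ENSMUSG00000026473) spans 153899944 to 153909723 of chromosome 1 on the plus strand. Its start overlaps Teddm2 on the opposite strand, which had 274 WT and 275 cKO UMIs, and Slc1a2 overlaps the antisense gene Gm13872, which had 3 and 0. Whether counting used strand is not given in the sources used here, so reads of these pairs may have been exchanged. A pseudogene of Glul, Glns-ps1, is 96.8% identical to it over 1126 bases and is not among the genes of the files, so the level of Glul is uncertain to the extent that reads of such copies were shared.

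The promoters of the pair that differed in opposite directions in upper-layer neurons, and of Glul, which was higher in cKO glia, are given as the 250 bases before a RefSeq start (GRCm38.p6). In the first pair the capitals mark the E-box core CANNTG, which neuronal bHLH factors such as those of the Neurod family bind, and in Glul they mark the CCAAT box.
Slc17a6 (chr7:51621580-51621829, strand +): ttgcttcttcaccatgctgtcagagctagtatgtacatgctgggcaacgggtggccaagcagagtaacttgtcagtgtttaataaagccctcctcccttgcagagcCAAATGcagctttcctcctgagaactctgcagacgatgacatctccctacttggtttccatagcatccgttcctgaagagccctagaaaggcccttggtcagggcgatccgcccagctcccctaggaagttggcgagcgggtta
Slc17a7 (chr7:45163671-45163920, strand +): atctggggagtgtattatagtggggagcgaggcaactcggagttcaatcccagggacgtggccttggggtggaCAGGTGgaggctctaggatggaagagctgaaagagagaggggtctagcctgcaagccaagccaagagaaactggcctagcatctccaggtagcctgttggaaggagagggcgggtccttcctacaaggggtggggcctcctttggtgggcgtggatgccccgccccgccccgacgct
Glul (chr1:153899679-153899928, strand +): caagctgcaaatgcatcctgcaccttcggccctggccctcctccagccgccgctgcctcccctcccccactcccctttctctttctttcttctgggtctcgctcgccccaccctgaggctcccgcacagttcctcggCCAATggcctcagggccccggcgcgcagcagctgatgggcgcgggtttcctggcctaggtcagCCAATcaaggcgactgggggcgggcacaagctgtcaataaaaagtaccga
CANNTG reads the same on both strands and stood in 66.2% of 32851 RefSeq promoter windows of this length. It stood 1 time in the windows printed for Slc17a6 and Slc17a7, 144 and 177 bases before the start, 1 time for Slc1a3, 2 times for Glul and 4 times for Slc1a2. A second RefSeq start of Slc17a6 had 2, of which 1 was CAGATG. The narrower forms CAGATG and CAGCTG stood in 14.4% and 13.0% of the windows. Neither was found in the windows printed for Slc17a6 and Slc17a7, and CAGCTG stood 1 time in that of Glul. Binding of any factor to the marked sites was not tested. CCAAT, searched on both strands, stood in 33.8% of the windows and 2 times in that of Glul, 113 and 50 bases before the start. It stood 3 times in that of Slc1a3 and was not found for Slc17a6, Slc17a7 or Slc1a2. The half-site TGTTCT of the glucocorticoid receptor, also searched on both strands, stood in 16.1% of the windows and was not found in these bases of Glul. It stood 1 time in those of Slc1a3.

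The libraries held 69554624 UMIs in 10715 WT barcodes and 67448785 UMIs in 9198 cKO barcodes. The filters kept 6601 cells of WT (median depth 6552 UMIs) and 5974 of cKO (7537). The barcode sequences of 19 cells occurred in both libraries, 8 of them among the cells kept. Tmem173, which encodes STING, had 126 UMIs in kept WT cells and 18 in kept cKO cells, or 2.26 against 0.33 CPM (UMIs of a gene per 1000000 UMIs of the cells summed). These sums run over all cell types, whose numbers differed between the libraries as given below. The part of that mix in the Tmem173 levels was not tested. The libraries also differed in sex-linked genes: Xist UMIs were 10 for WT and 71370 for cKO, while 4 Y-linked genes summed to 9771 and 6, so sex and genotype cannot be told apart here. Neurons of the libraries stood apart in clustering without the member and sex-linked genes: of 10 clusters named for projection neurons, 6 came at 95% or more from 1 library and held 83.8% of the WT and 73.1% of the cKO cells so named. Of 7 clusters named for GABAergic neurons 3 did so, with 63.1% of the WT and 24.0% of the cKO cells so named. Neither of the 2 clusters of radial glia and astrocytes did so.

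Each cell was placed in a group when it had UMIs of at least 3 genes of 1 of 12 marker lists, none of which holds a member, and led in that list over every other. The ending -like marks names that were given from markers only. Projection neuron-like cells numbered 2510 in WT and 2562 in cKO, and 21.9% and 34.4% of them had exactly the 3 markers needed. Non-cycling radial glia-like cells numbered 215 and 267, astrocyte-like cells 433 and 244, and cycling radial glia-like cells 145 and 112, which are also given together as glial cells (793 and 623). GABAergic neuron-like cells numbered 1530 and 1251, intermediate progenitor-like cells 134 and 150, Cajal-Retzius-like cells 62 and 77, oligodendrocyte precursor (OPC)-like cells 355 and 183 and endothelial-like cells 172 and 65. Levels are CPM over the summed cells of a group. The erythroid list, which none of these cells should express, differed between the libraries, with a summed log2 ratio over all kept cells of -1.53 (-1.55 to -1.51). It ranged from -8.39 in radial glia-like and -5.06 in projection neuron-like cells over -2.21 in GABAergic neuron-like, -1.44 in cycling radial glia-like and -1.32 in astrocyte-like cells to 0.01 (-0.02 to 0.04) in endothelial-like cells. The part of this difference in the results below was not tested.

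The 5 genes divided the cells into neuronal and glial groups. Among the named groups with at least 20 cells, Slc17a6 was highest in Cajal-Retzius-like cells, at 306 CPM in WT and 262 in cKO. Cells with both the projection neuron and intermediate progenitor lists (119 and 171), intermediate progenitor-like cells (114 and 85.6) and projection neuron-like cells (35.1 and 49.7) followed. Cells that met no list stood at 65.9 and 56.3 CPM. The intervals of the cells with both lists and of the intermediate progenitor-like cells overlapped in WT (88.9 to 156 and 93.3 to 137 CPM). Slc17a7 reached 34.9 CPM in WT and 22.1 in cKO projection neuron-like cells and at most 3.08 CPM in any of the other named groups with at least 20 cells. Slc1a3 was highest in astrocyte-like cells (2841 and 2614 CPM), then radial glia-like cells (2129 and 1807) and cycling radial glia-like cells (1364 and 1022). Slc1a2 followed the same order at 864 and 710, 539 and 472, and 325 and 232 CPM. Glul did too, at 1138 and 1665, 735 and 1180, and 438 and 481 CPM, but was also high in microglia-like cells (482 and 383) and endothelial-like cells (352 and 344).

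**Figure D1:**
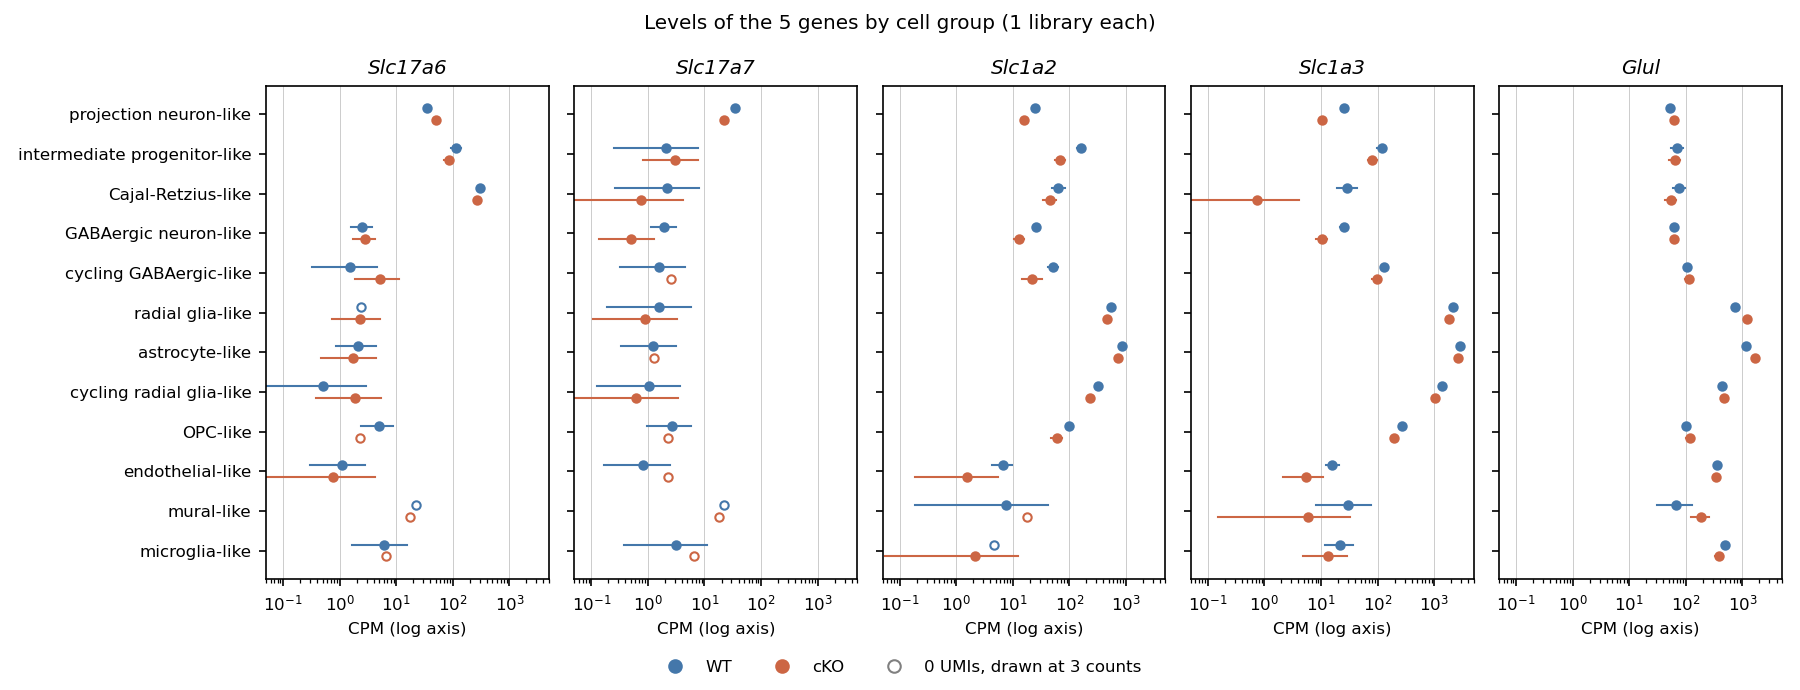
Levels of the 5 genes in CPM (log axis) in 12 cell groups, with WT and cKO as separate points, bars for exact 95% Poisson intervals and open points, drawn at the level of 3 counts, where no UMI was found. Slc17a6 and Slc17a7 are neuronal, Slc1a2 and Slc1a3 peak in astrocyte-like and radial glia-like cells, and Glul is also high in endothelial-like and microglia-like cells.

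GABAergic neuron-like cells, which do not use these vesicular transporters, gave the background level. Whether their UMIs came from free RNA, doublets or misplaced cells was not tested. There Slc17a6 stood at 2.49 CPM in WT and 2.75 in cKO, and Slc17a7 at 1.93 and 0.50, with median depths of 4566 and 5316 UMIs a cell. The level depended on the grouping, since in the GABAergic clusters of the alternative by Leiden clustering Slc17a6 stood at 13.8 and 6.01 CPM. At least 1 UMI of Slc17a6 was seen in 1.31% and 1.36% of these cells, against 24.1% of WT and 36.6% of cKO projection neuron-like cells. Slc17a7 was seen in 1.11% and 0.32% of them, against 12.1% and 7.46% of projection neuron-like cells. Levels of both genes in glial cells, from 0.49 to 1.95 CPM, did not exceed that background.

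Over all projection neuron-like cells the vesicular transporters differed between the libraries in opposite directions. Among the cells with 5 to 7.5% mitochondrial UMIs, which were 71.4% of the WT and 42.1% of the cKO cells, both were higher in cKO (log2 ratios 0.50, 0.34 to 0.66, and 0.22, 0.04 to 0.39). The mix of layer classes, described below, differed there: upper layer-like cells were 1227 of 1793 in WT but 492 of 1078 in cKO. Of the classes compared, Slc17a7 was higher in that range only where no layer list led. The part of the mix in the ratio was not tested. Over the whole group Slc17a6, the early form, had 888 UMIs in WT and 1442 in cKO, or 35.1 and 49.7 CPM, a log2 ratio of 0.50 (0.38 to 0.62). Slc17a7, the later form, had 883 and 640 UMIs, or 34.9 and 22.1 CPM, a log2 ratio of -0.66 (-0.81 to -0.51). Neither passed 1.5-fold on the scale of CPM + 10 used for counting genes, on which 4.65% of 12289 genes were higher and 11.3% lower in cKO projection neuron-like cells. As a share of the UMIs of both genes, Slc17a7 made up 49.9% in WT and 30.7% in cKO. Whether the 2 genes are captured and mapped alike was not tested, so such shares are read only across groups, not as which gene is the more abundant.

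Projection neuron-like cells were then divided by layer markers, where at least 2 markers of a list led. Upper layer-like cells were the largest class, with 1670 WT and 1316 cKO cells. In them Slc17a6 stood at 34.1 CPM in WT and 57.9 in cKO, a log2 ratio of 0.76 (0.61 to 0.92), and was past 1.5-fold. Slc17a7 stood at 22.8 CPM in WT and 9.54 in cKO, a log2 ratio of -1.25 (-1.55 to -0.96), also past 1.5-fold. Both levels lay outside the other library's interval. At 5 to 7.5% mitochondrial UMIs, with 73.5% of the WT and 37.4% of the cKO cells, the Slc17a7 ratio was -0.28 (-0.63 to 0.06), which holds 0. Among 11269 genes with at least 50 UMIs in upper layer-like cells, 5.96% were higher and 13.7% lower past 1.5-fold, with a median log2 ratio of -0.10.

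Genes that mark these neurons differed between the libraries in the same cells. The neuronal transcription factors Neurod2, Neurod6, Tbr1 and Bhlhe22 were summed, and their log2 ratio was -0.39 (-0.41 to -0.37) in projection neuron-like and -0.37 (-0.40 to -0.35) in upper layer-like cells. They did not differ alike: in upper layer-like cells Neurod2 stood at 655 CPM in WT and 777 in cKO, Tbr1 at 106 and 111, Neurod6 at 797 and 538 and Bhlhe22 at 591 and 233. The upper-layer genes Cux1, Cux2, Unc5d and Rorb together had a log2 ratio of -0.51 (-0.54 to -0.47) in projection neuron-like and -0.27 (-0.32 to -0.23) in upper layer-like cells. Of these Cux1 was higher in cKO upper layer-like cells (262 and 345 CPM), and Cux2 (187 and 97.9), Unc5d (89.3 and 42.7) and Rorb (107 and 48.5) were lower. In layer 5-like and layer 6-like cells the first 4 genes gave -0.43 and -0.27. The list of 8 cycling genes was higher in cKO projection neuron-like cells for all 8, with a summed log2 ratio of 0.79 (0.64 to 0.94), and for 7 of 8 in upper layer-like cells (0.59, 0.38 to 0.80), but lower in layer 5-like (-2.31, -2.84 to -1.79) and layer 6-like cells (-0.95, -1.57 to -0.31). In cells in which no layer list led all 8 were higher, with a log2 ratio of 2.95 (2.51 to 3.42). Few cells had the 3 cycling markers that set a cell as cycling: 1 WT and 2 cKO cells in layer 5, 1 and 2 in layer 6, and 0 and 5 with no leading list. The sums may thus rest on few cells, and counting intervals do not take this into account. The cells were chosen with the first 2 sets of genes, so those levels are a description, and the part of any of the 3 sets in the levels of Slc17a6 and Slc17a7 was not tested.

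In the deep layers Slc17a7 was also lower over all cells, and the intervals of the Slc17a6 ratio held 0. Layer 5-like cells (159 and 200) had Slc17a7 at 64.2 CPM in WT and 32.4 in cKO, a log2 ratio of -0.99 (-1.36 to -0.63), where 5.47% of genes were higher and 14.2% lower past 1.5-fold. Of these cells 44.0% in WT and 55.5% in cKO had exactly the 3 projection neuron markers needed, and with 1 more required the ratio was -0.38 (-0.84 to 0.08). Layer 6-like cells (135 and 272) had it at 57.3 and 26.6 CPM, a log2 ratio of -1.11 (-1.56 to -0.65), where the shares were 8.5% and 14.9%. Slc17a6 stood at 27.2 and 24.2 CPM in layer 5-like and 43.5 and 42.6 CPM in layer 6-like cells, with log2 ratios of -0.17 (-0.66 to 0.33) and -0.03 (-0.47 to 0.43), whose intervals hold 0 and whose signs turn under TMM scaling. In layer 6-like cells with at least 1000 genes and at most 5% mitochondrial UMIs (26 and 46), however, Slc17a6 had 13 and 38 UMIs, or 44.8 and 127.3 CPM, a log2 ratio of 1.51 (0.57 to 2.54). Slc17a7 had 36 and 3 UMIs in the same cells, or 124 and 10.05 CPM, a log2 ratio of -3.63 (-5.97 to -1.96). In the 18 and 73 layer 6-like cells with 7.5 to 10% mitochondrial UMIs it stood at 17.3 and 30.3 CPM, from 3 and 27 UMIs, a log2 ratio of 0.81 (-0.89 to 3.17). The 13 subplate-like cells of WT, too few to compare with 6 in cKO, had the highest level of Slc17a7, at 153 CPM from 56 UMIs, and 3 UMIs of Slc17a6. The WT library thus ran from 22.8 CPM of Slc17a7 in upper layer-like cells to 64.2 and 57.3 in layers 5 and 6, whose intervals overlapped, and the cKO library kept that order at lower levels.

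**Figure D2:**
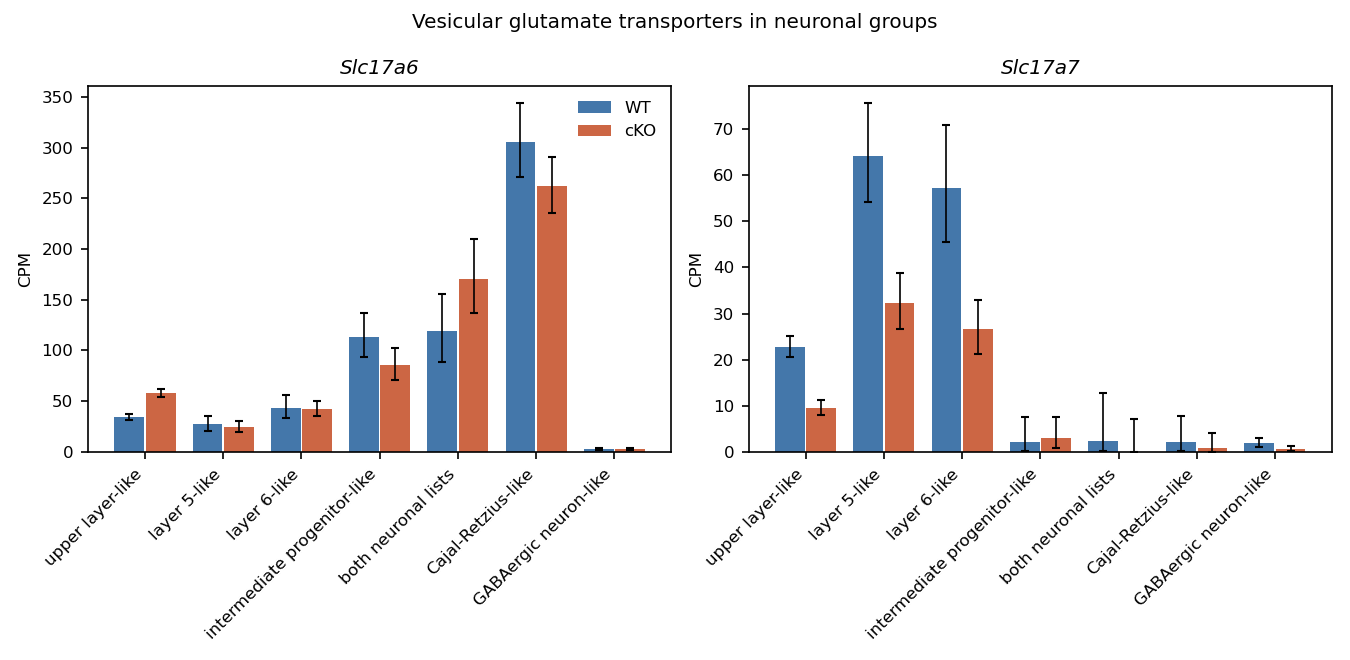
Bars give the level in CPM of Slc17a6 (left) and Slc17a7 (right) in 7 neuronal groups of the WT and cKO libraries, with exact 95% Poisson intervals. Slc17a6 is higher in cKO upper layer-like cells (57.9 against 34.1 CPM), and Slc17a7 is lower in cKO in upper layer-like, layer 5-like and layer 6-like cells.

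Single cells seldom showed both genes. Each was seen in a minority of cells, so few would show both even without any link between them. Among WT projection neuron-like cells 80 had UMIs of both, 525 of Slc17a6 alone and 223 of Slc17a7 alone, and among cKO cells 52 had both, 886 the first alone and 139 the second alone. Of WT cells with Slc17a6, 13.2% also had Slc17a7, and of those without it 11.7%. In cKO these shares were 5.54% and 8.56%. When every cell was thinned to 1000 UMIs, the share of projection neuron-like cells with Slc17a6 was 4.16% in WT and 6.05% in cKO, and that with Slc17a7 was 1.20% and 0.90%, with 8 WT and 2 cKO cells left out as too shallow. The thinned difference for Slc17a7, -0.30 percentage points, had an interval of -0.91 to 0.29, so a difference in the share was not detectable at that depth. Thinned to 2000 UMIs, the shares were 3.10% (2.45 to 3.86) in WT and 1.67% (1.21 to 2.25) in cKO, whose intervals do not overlap.

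The level of Slc17a7 also moved with the share of mitochondrial UMIs, which the filter allowed up to 10%, and the libraries differed in that share. Of projection neuron-like cells, 71.4% in WT but 42.1% in cKO had 5 to 7.5%, while 17.5% and 43.2% had 7.5 to 10%. In upper layer-like cells with up to 5% (150 and 146 cells), Slc17a7 had 84 UMIs, 72.5 CPM, in WT and 0 in cKO, and the interval of the log2 ratio reached up to -3.97. It stood at 21.3 and 17.5 CPM at 5 to 7.5%, where the log2 ratio of -0.28 had an interval of -0.63 to 0.06, and at 7.68 and 4.61 CPM at 7.5 to 10%. Over all projection neuron-like cells with 5 to 7.5%, where the direction turned, it stood at 31.2 CPM in WT and 36.2 in cKO. In that range it was lower in cKO layer 5-like (-0.46, -0.90 to -0.02) and layer 6-like cells (-0.70, -1.30 to -0.09), and higher in projection neuron-like cells in which no layer list led (356 and 317 cells), at 45.5 and 62.0 CPM, a log2 ratio of 0.45 (0.17 to 0.73). Over all cells with no leading layer list Slc17a7 was lower in cKO, at 45.3 and 35.9 CPM (-0.34, -0.59 to -0.09). At up to 5% it stood there at 99.7 and 19.9 CPM (-2.32, -3.18 to -1.53). The 303 cKO UMIs of this class lay in a minority of its cells, which counting intervals do not take into account. The same holds for upper layer-like cells, whose 365 WT and 131 cKO UMIs of Slc17a7 lay in a minority of cells. Of 1670 WT cells 46 had it together with Slc17a6 and 96 had it without Slc17a6. Of 1316 cKO cells these were 15 and 32. Slc17a6, in contrast, was higher in cKO upper layer-like cells in each range, at 120.6 against 69.0, 63.3 against 32.7 and 47.0 against 24.97 CPM.

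**Figure D3:**
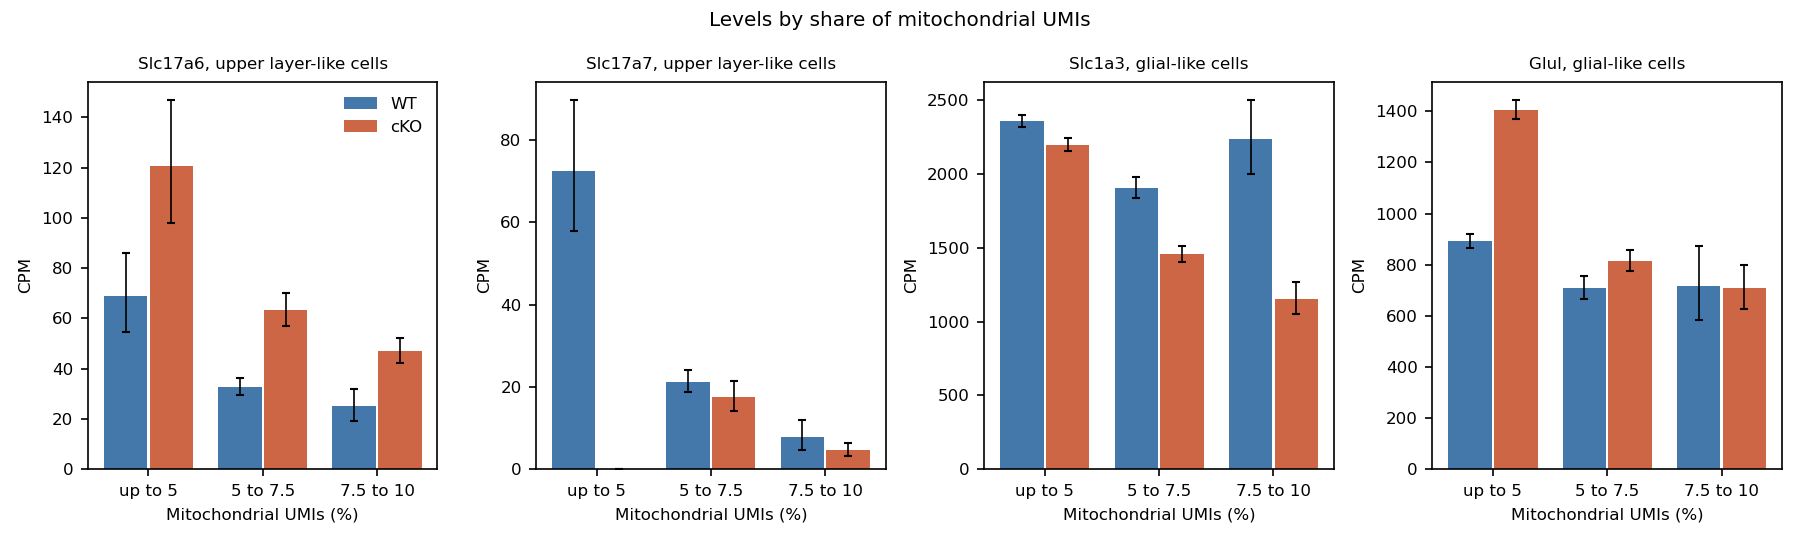
Levels in CPM with 95% Poisson intervals in cells with up to 5, 5 to 7.5 and 7.5 to 10% mitochondrial UMIs, for Slc17a6 and Slc17a7 in upper layer-like cells and Slc1a3 and Glul in glial cells. Slc17a6 is higher in cKO in every range, the gap in Slc17a7 is largest at up to 5% (72.5 CPM against 0 UMIs), and that in Glul over the glial cells together is seen at up to 7.5%.

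Cajal-Retzius-like and intermediate progenitor-like cells had many UMIs of Slc17a6 and few of Slc17a7. Cajal-Retzius-like cells, the reelin-secreting neurons of the marginal zone, had UMIs of it in 93.5% of WT and 92.2% of cKO cells, and of Slc17a7 in 2 and 1 cells. Their Slc17a6 level was 306 CPM in WT and 262 in cKO, a log2 ratio of -0.22 (-0.45 to 0.01). In intermediate progenitor-like cells, the Eomes-expressing precursors of projection neurons, Slc17a6 stood at 114 and 85.6 CPM, a log2 ratio of -0.41 (-0.80 to -0.02), which was 0.04 when 1 more marker was required, and Slc17a7 had 2 and 4 UMIs. Cells with both the intermediate progenitor and the projection neuron list (61 and 62) had 119 and 171 CPM, a log2 ratio of 0.52 (0.01 to 1.04).

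**Figure D4:**
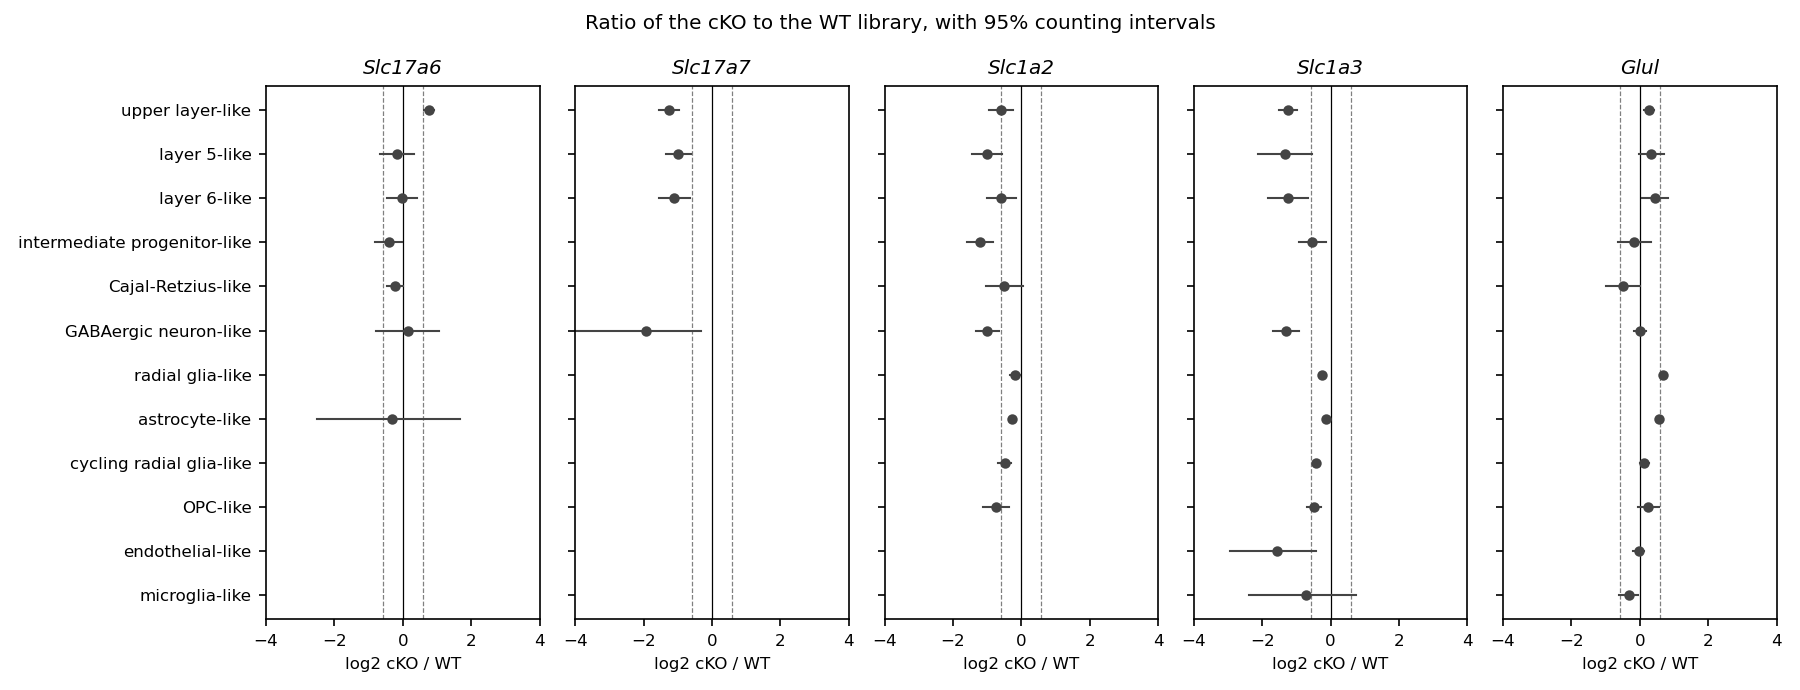
Log2 ratio of the cKO to the WT level of each gene in 12 cell groups, as points with exact 95% counting intervals, shown where both libraries had more than 3 UMIs. Dashed lines mark 1.5-fold. Slc17a6 is past it in upper layer-like cells, Slc17a7 lies to the left in all layers, Slc1a2 and Slc1a3 lie to the left in neuronal and glial groups, and Glul lies to the right in radial glia-like and astrocyte-like cells.

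Both glial uptake transporters were modestly lower in cKO glia. The UMIs of Slc1a3 in astrocyte-like cells were 9251 for WT and 6005 for cKO, or 2841 and 2614 CPM, a log2 ratio of -0.12 (-0.17 to -0.07). The ratio was -0.24 (-0.31 to -0.17) in radial glia-like and -0.42 (-0.51 to -0.33) in cycling radial glia-like cells. For Slc1a2 these ratios were -0.28 (-0.37 to -0.19), -0.19 (-0.33 to -0.05) and -0.49 (-0.67 to -0.30). In radial glia-like cells with up to 5% mitochondrial UMIs (151 and 173), most of that group, the Slc1a3 ratio was -0.03 (-0.12 to 0.05). At 5 to 7.5% (50 and 75 cells) it was -0.57 (-0.73 to -0.41), and that of Slc1a2 was 0.22 (-0.12 to 0.57). Over each group as a whole none passed 1.5-fold. The genes past it were 6.85% higher and 12.6% lower in astrocyte-like, 8.72% and 12.5% in radial glia-like and 9.62% and 11.7% in cycling radial glia-like cells. Thinned to 1000 UMIs, 47.5% of WT and 37.3% of cKO glial cells had a UMI of Slc1a2. Astrocyte-like cells, the highest in Slc1a2, were 433 of 793 WT but 244 of 623 cKO glial cells. The part of that mix in the share was not tested. The astrocyte list (Aqp4, Aldh1l1, Gfap, S100b, Gjb6 and Agt) was lower in the same cells, with log2 ratios of -0.59 in astrocyte-like, -0.56 in radial glia-like and -1.12 in cycling radial glia-like cells, and the OPC list was lower there too, at -1.70, -1.63 and -1.12. Their part in the lower transporter levels was not tested.

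Slc1a2 and Slc1a3 kept a near-constant proportion in glia, and Slc1a2 had a higher share in deep-layer, Cajal-Retzius-like and several other neuronal groups. Slc1a2 made up 20.2% and 20.7% of their joint UMIs in radial glia-like cells of WT and cKO, 23.3% and 21.4% in astrocyte-like and 19.2% and 18.5% in cycling radial glia-like cells. In layer 5-like cells it made up 71.6% and 76.0%, in layer 6-like cells 60.0% and 70.2%, and in Cajal-Retzius-like cells 68.6% and 98.4%. Upper layer-like cells lay between, with 29.5% and 39.6%, and their WT interval (25.9 to 33.3%) overlapped that of WT OPC-like cells (23.9 to 30.0%). Projection neuron-like cells with no leading layer list had 63.1% and 68.0%. Intermediate progenitor-like cells had 57.4% and 46.0%, and cells with both neuronal lists 62.2% and 34.9%. GABAergic neuron-like cells had 50.7% and 55.9%, but cycling GABAergic-like cells 28.2% and 18.6%. Endothelial-like cells had 29.3% and, from 9 UMIs, 22.2%. The 47 UMIs of Slc1a2 in WT subplate-like cells came with 0 of Slc1a3. The deep-layer proportions lay outside the 18.5 to 26.9% seen over the radial glia-like, astrocyte-like, cycling and OPC-like cells.

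In neurons both transporters were at lower levels than in glia, and Slc1a3 was lower in cKO there too. Slc1a3 stood at 25.6 CPM in WT and 10.5 in cKO projection neuron-like cells, a log2 ratio of -1.28 (-1.48 to -1.08), and at 25.2 and 10.3 CPM in GABAergic neuron-like cells, a log2 ratio of -1.29 (-1.68 to -0.92). In endothelial-like cells the gene had 58 and 7 UMIs, or 15.9 and 5.36 CPM. Layer 5-like cells had 16.9 and 6.75 CPM (-1.33, -2.13 to -0.55), layer 6-like cells 37.3 and 15.7 (-1.25, -1.84 to -0.67) and upper layer-like cells 26.6 and 11.2 (-1.24, -1.52 to -0.97). All of these were past 1.5-fold, as were 11.3%, 13.2% and 19.4% of genes on the lower side in projection neuron-like, GABAergic neuron-like and endothelial-like cells, against 6.82% on the higher side in GABAergic neuron-like cells. The layer 5-like ratio was -2.38 (-3.10 to -1.70) without doublet removal, and the layer 6-like ratio was 0.77 (-1.21 to 2.99) in cells with at least 1000 genes and at most 5% mitochondrial UMIs. Slc1a3 was also lower past 1.5-fold in projection neuron-like cells with no leading layer list (24.9 and 8.76 CPM), and in the 552 and 783 cells that met no list (84.7 and 42.1 CPM), where 10.5% of genes were higher and 16.4% lower. Microglia-like cells, which should lack GLAST, had 21.6 and 13.1 CPM from 14 and 6 UMIs, and how much of the neuronal level was free RNA was not tested. Lists of glial markers were lower in the same cells. The radial glia and astrocyte list of 10 had a summed log2 ratio of -0.28 (-0.39 to -0.17) in projection neuron-like cells, -0.39 (-0.52 to -0.26) in GABAergic neuron-like cells and -0.80 (-1.03 to -0.57) in cells that met no list, with 5, 7 and 7 of its genes lower. The OPC list gave -1.06 (-1.30 to -0.83), -0.80 (-1.17 to -0.43) and -1.96 (-2.24 to -1.69), and the list of 6 astrocyte genes -0.64 (-1.13 to -0.15), -0.13 (-0.78 to 0.52) and -0.88 (-1.82 to 0.05). Their part in the lower Slc1a3 was not tested. In WT Cajal-Retzius-like cells the 27 UMIs of Slc1a3 came from 3 of 62 cells, and in cKO there was 1 UMI.

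Slc1a2 was lower past 1.5-fold in cKO intermediate progenitor-like cells, cells with both neuronal lists, and layer 5-like, OPC-like and GABAergic neuron-like cells, cycling or not, as well as in projection neuron-like cells in which no layer list led. The UMIs in intermediate progenitor-like cells were 152 for WT and 93 for cKO, or 159 and 69.2 CPM, a log2 ratio of -1.20 (-1.58 to -0.81), where 12.4% of genes were higher and 15.5% lower. Cells with both neuronal lists had 117 and 29.1 CPM, from 51 and 15 UMIs, where 15.8% were higher and 14.8% lower. Layer 5-like cells had 42.8 and 21.4 CPM, a log2 ratio of -1.002 (-1.46 to -0.55), which was -0.21 (-0.88 to 0.46) with 1 more marker required. Layer 6-like cells, at 55.9 and 37.0 CPM, did not pass 1.5-fold (log2 ratio -0.60, -1.02 to -0.17). OPC-like cells had 100 and 60.5 CPM, a log2 ratio of -0.73 (-1.12 to -0.35), where 9.25% were higher and 15.6% lower. GABAergic neuron-like cells had 25.8 and 13.0 CPM, a log2 ratio of -0.99 (-1.34 to -0.65), which turned to 0.13 (-0.56 to 0.80) in cells with at least 1000 genes and at most 5% mitochondrial UMIs. Cycling GABAergic-like cells (204 and 95) had 51.5 and 22.1 CPM, from 100 and 26 UMIs, a log2 ratio of -1.22 (-1.90 to -0.58), where 11.2% were higher and 14.4% lower. Projection neuron-like cells with no leading layer list (533 and 768) had 42.6 and 18.6 CPM, a log2 ratio of -1.20 (-1.50 to -0.90), where 14.6% were lower. Slc1a3 did not pass 1.5-fold in the progenitors, at 118 and 81.1 CPM in intermediate progenitor-like (log2 ratio -0.54, but 0.08 in the same stricter cells) and 273 and 196 CPM in OPC-like cells. How much of the lower Slc1a2 in these groups came from free RNA, or from RNA of other cell types, was not tested.

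Glul differed from the transporters in glia and was higher in cKO. In radial glia-like cells its UMIs were 936 for WT and 2630 for cKO, or 735 and 1180 CPM, a log2 ratio of 0.68 (0.58 to 0.79), past 1.5-fold as 8.72% of 7748 genes were on the higher side. In astrocyte-like cells it had 3705 and 3826 UMIs, or 1138 and 1665 CPM, a log2 ratio of 0.55 (0.48 to 0.62), which did not reach 1.5-fold. In cycling radial glia-like cells the levels were 438 and 481 CPM, a log2 ratio of 0.14 (-0.01 to 0.28). Over the glial cells together the log2 ratio was 0.47 (0.42 to 0.52), which did not reach 1.5-fold. Radial glia-like and astrocyte-like cells are parted by the astrocyte list, which was lower in cKO. Median depth was 5873 UMIs in WT and 8008 in cKO radial glia-like cells. The part of this border between the classes in their ratios was not tested. As a share of the joint UMIs of Glul and Slc1a3, Glul made up 25.7% in WT and 39.5% in cKO radial glia-like cells, and 28.6% and 38.9% in astrocyte-like cells. The higher level was seen in glial cells with up to 5% mitochondrial UMIs (893 and 1406 CPM) and with 5 to 7.5% (709 and 816 CPM), and was not seen over the 26 WT and 36 cKO glial cells with 7.5 to 10% (718 and 709 CPM). Radial glia-like cells alone were higher in each range, with log2 ratios of 0.80 (0.68 to 0.92), 0.65 (0.37 to 0.93) and, in 14 and 19 cells, 0.75 (0.18 to 1.36). Astrocyte-like cells gave 0.65 (0.58 to 0.73), 0.33 (0.18 to 0.47) and, in 9 and 8 cells, -0.03 (-0.53 to 0.47).

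Outside these glia Glul differed little or with few UMIs. It stood at 62.4 CPM in both libraries in GABAergic neuron-like cells, with a log2 ratio of -0.001 (-0.18 to 0.18). Projection neuron-like cells had 53.1 and 62.6 CPM, a log2 ratio of 0.24 (0.13 to 0.34), with 42.8 and 54.0 CPM in layer 5-like (0.34, -0.03 to 0.70) and 53.8 and 72.7 in layer 6-like cells (0.43, 0.06 to 0.82, but 1.11, 0.15 to 2.13, in those with at least 1000 genes and at most 5% mitochondrial UMIs), and OPC-like cells 101 and 120 CPM, a log2 ratio of 0.25 (-0.05 to 0.55). Endothelial-like cells had 352 and 344 CPM, a log2 ratio of -0.03 (-0.19 to 0.12). Microglia-like cells (58 and 30) had 482 and 383 CPM, a log2 ratio of -0.33 (-0.61 to -0.06). Mural-like cells (26 and 25) had only 9 and 31 UMIs, 67.6 and 183 CPM.

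Beside Glul, 10 other genes known to respond to glucocorticoids were read. In radial glia-like cells 6 of them had at least 50 UMIs and 4 were higher past 1.5-fold in cKO, led by Per1, Cdkn1a and Klf9, with none lower, where 8.72% of all genes tested were higher, and the median log2 ratio of CPM + 10 over the 6 was 0.78 against 0.004 over all genes tested. Per1, a clock gene with a glucocorticoid response, stood at 13.3 CPM in WT and 134 in cKO, from 17 and 299 UMIs. Cdkn1a, a cell cycle inhibitor, stood at 6.28 and 68.6 CPM, from 8 and 153 UMIs. In astrocyte-like cells 4 of 6 were higher and none lower, against 6.85% of all genes on the higher side, with Per1 at 23.0 and 178 CPM and Klf9, a transcription factor, at 106 and 226 CPM. Cycling radial glia-like cells had 4 of 6 higher, against 9.62%, with Glul at 438 and 481 CPM. Endothelial-like cells had 7 of 9 higher, with Klf9 at 27.8 and 189 CPM, against 10.8% of all genes tested, with Glul at 352 and 344 CPM. OPC-like cells had 3 of 7 higher and 0 lower, against 9.25% and 15.6% of all genes, with Glul at 101 and 120 CPM. In microglia-like cells the median over the 2 genes tested was 1.54, against -0.01 over all genes tested, with Glul lower in cKO at 482 and 383 CPM. In projection neuron-like cells Per1 alone of 8 was higher (7.44 and 19.4 CPM), against 4.65%, and none was lower. Within their classes Cdkn1a was lower in cKO layer 5-like (19.6 and 4.78 CPM), layer 6-like (31.0 and 12.5) and no-layer cells (17.6 and 8.17), and Ddit4 in layer 5-like cells (49.5 and 27.3), where none of 8 was higher, while Per1 was higher in layer 6-like and no-layer cells. The lower genes were 2 of 8, 1 of 7 and 1 of 8 in these classes, against 14.2%, 14.9% and 14.6% of all genes. On the higher side the shares of all genes were 5.47%, 8.5% and 6%. Tsc22d3 was lower in cKO cycling GABAergic-like (41.2 and 20.4 CPM) and intermediate progenitor-like cells (84.5 and 52.8), with Klf9 higher in the latter (16.7 and 35.7). That was 1 of 4 and 1 of 3 lower, against 14.4% and 15.5% of all genes, with 12.4% higher in intermediate progenitor-like cells. Any part of glucocorticoids in the levels of Glul was not tested.

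**Figure D5:**
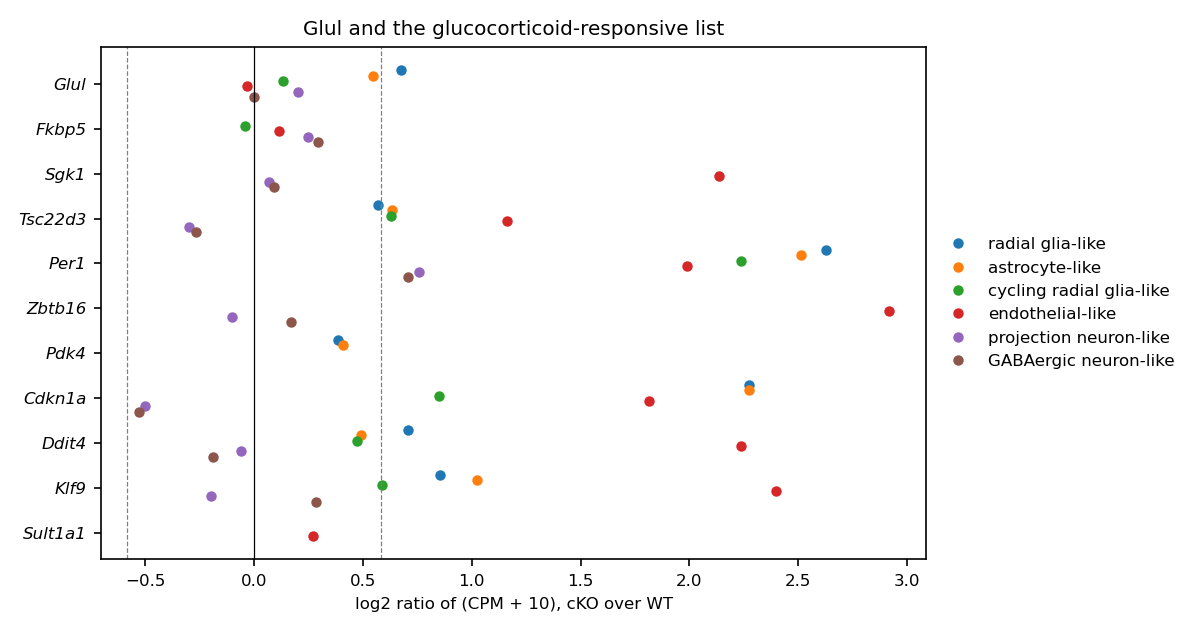
Log2 ratio of (CPM + 10), cKO over WT, of Glul and 10 genes known to respond to glucocorticoids, in 6 cell groups, with dashed lines at 1.5-fold and points only for genes with at least 50 UMIs in the group. Per1 and Cdkn1a are far to the right in glial and endothelial-like cells, and Glul is to the right in radial glia-like and astrocyte-like cells and at 0 in endothelial-like and GABAergic neuron-like cells.

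Of 20 other genes of glutamate handling, most measured ones did not pass 1.5-fold. In projection neuron-like cells 15 had at least 50 UMIs, of which Slc38a2, a glutamine transporter, was higher, at 70.5 CPM in WT and 111 in cKO. Lower were Aldh18a1, which makes proline from glutamate, at 23.8 and 6.93 CPM, Slc1a4, a neutral amino acid transporter of the Slc1 family, at 25.3 and 8.75 CPM, and Got1, a cytosolic aminotransferase, at 60.4 and 33.1 CPM. These were 1 of 15 higher and 3 lower, against 4.65% and 11.3% of all genes tested. The median log2 ratio of CPM + 10 over the 15 was -0.005, against -0.08 over all genes. In astrocyte-like cells 15 were measured, and Slc25a12, a mitochondrial aspartate-glutamate carrier, was higher (20.6 and 37.0 CPM). There Got1 (38.1 and 17.8 CPM), Slc25a18, a mitochondrial glutamate carrier (100 and 57.0 CPM), and Gpt2, a mitochondrial aminotransferase (44.8 and 25.2 CPM), were among 4 lower genes, against 6.85% of all genes higher and 12.6% lower. The median over the 15 was -0.39 in astrocyte-like cells, against -0.03 over all genes tested, and -0.16 over 13 in radial glia-like cells, against 0.004. In radial glia-like cells Slc25a12 was higher (20.4 and 39.0 CPM), and Aldh18a1 (39.2 and 12.6), Gpt2 (45.5 and 23.3) and Slc25a18 (57.3 and 34.5) were lower, against 8.72% and 12.5% of all genes.

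Across 27 points, each the level of a gene in 1 group of 1 library with at least 20 cells, the members' profiles were set beside those of 7132 genes with a mean of at least 20 CPM. The points share libraries and depth, so Pearson's r of log2(CPM + 10) is given as a description only. Slc1a3 was most like Nr2e1 (0.98) and Fabp7 (0.97), both genes of radial glia, then Rgs20 (0.96), 2810459M11Rik (0.96) and Slc15a2 (0.95). Slc1a2 was most like Mmd2 (0.95), Gpm6b (0.95), Rgs20 (0.94), Ivd (0.93) and Ncan (0.93), with Slc1a3 in rank 9 (0.91). Glul was most like Cst3 (0.90), Aldh9a1 (0.89), S1pr1 (0.88), Zfyve21 (0.88) and Sbds (0.88), and its r with Slc1a3 was 0.66. Slc17a6 was most like Gm28050 (0.94), Calb2 (0.92), which encodes calretinin, Prmt8 (0.90), Pcp4 (0.89) and Nrn1 (0.88). Slc17a7 was most like Nrgn (0.85), which encodes the postsynaptic protein neurogranin, Fam19a2 (0.80), Clmp (0.78), Arpp21 (0.78) and Hs6st2 (0.75), and its r with Slc17a6 was 0.27. Its own mean was 3.08 CPM, under the minimum set for the other genes, and all points but the 2 of projection neuron-like cells were at 3.08 CPM or less, so these values rest mostly on those 2.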

How the data were processed

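Single-cell RNA sequencing was analysed for 1 WT and 1 cKO library, grouped by the genotype in the labels. For each, the authors deposited raw UMI counts per gene and barcode, with no normalization. The submitters' processing notes name STAR, Cell Ranger 2, Seurat and mm9, while per the file headers the matrices were written by software version 3.0.1. The filter used to call cells, the annotation and the strand setting are not given in the sources used here. A combined matrix was used only as an alternative, and the authors' own marker table, with fold changes and p-values of their clusters, was not used.

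Cells with at least 500 genes and at most 10% mitochondrial UMIs were kept, which removed mostly barcodes over 10% (35.9% of WT and 32.9% of cKO). Doublets were left out at a Scrublet score of 0.25 (scanpy 1.11.5), 165 in WT and 106 in cKO, since the automatic threshold called 165 in WT but 0 in cKO. That threshold was set after seeing the calls. A cell joined the list with the highest share of its markers detected, by a lead of at least 10 percentage points, and 8.36% of WT and 13.1% of cKO cells met no list. Glial cells were cycling with at least 3 of 8 cycling markers and astrocyte-like with at least 2 of 6. UMIs were summed per group and given as CPM with exact 95% Poisson intervals, and exact intervals were also set on ratios (conditional binomial) and on shares of cells (Clopper-Pearson). Genes with at least 50 UMIs in a group were counted as past 1.5-fold on CPM + 10. For differences of shares, the distances to the Clopper-Pearson limits were combined as the root of the sum of squares. The calculation was run on simulated group sums with Poisson error only. These held no library effect and no bunching of UMIs within cells, so they check the arithmetic and not how well the intervals suit these data. The rule for naming took in the members in any group, genes of the 2 lists past 1.5-fold (at most the 3 highest and 3 lowest) and the 5 genes most like each member. The members and lists were chosen with earlier results of these data known. Coordinates are from GENCODE (GRCm38), matched by identifier, and not in mm9. Alternatives were other cell filters, 1 more marker, Leiden clusters (python-igraph 0.11.9), TMM factors (edgeR 4.0.16, scaling only), other totals, the mean of single-cell CPM, the combined matrix, other thinning and a minimum of 10 UMIs. Added after seeing the data were ranges of mitochondrial share and subtraction of the GABAergic neuron-like level. The levels of 4 projection neuron and 4 upper-layer genes were also added then, and the sums over those whole marker lists are not reported here.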

Additional observations from a re-analysis of the deposited data

Results flagged for a closer look

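In some cell groups 2 of the genes differed between the libraries in opposite directions. Slc17a6 was higher in cKO upper layer-like cells (log2 ratio 0.76, 0.61 to 0.92) and lower in cKO intermediate progenitor-like cells (-0.41, -0.80 to -0.02), the latter being 0.039 with 1 more marker required. Glul was higher in cKO radial glia-like cells (0.68, 0.58 to 0.79) and lower in cKO microglia-like cells (-0.33, -0.61 to -0.06). With 1 library in each group neither difference between cell groups was tested.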

How the results depend on the processing

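No paired analysis was possible because each group has 1 library. In 514 recomputed values for 82 results, 424 stayed and the others moved. Staying meant lying inside the interval of the reported value. For counts of genes past 1.5-fold, which have no interval, it meant lying within 1.5-fold of the reported count. The sign changed in 33, of which 21 stayed inside the interval, 5 moved outside an interval that held 0 and 7 belonged to results whose interval did not. In cells with at least 1000 genes and at most 5% mitochondrial UMIs, the log2 ratio in projection neuron-like cells was 0.68 for Slc17a6 and -2.79 for Slc17a7, and in glial cells -0.26 for Slc1a2, -0.10 for Slc1a3 and 0.66 for Glul. With TMM factors, which shift projection neuron-like ratios by 0.18, these were 0.68, -0.48, -0.28, -0.17 and 0.55. With the mean of single-cell CPM they were 0.63 for Slc17a6 and -0.92 for Slc17a7, and with Leiden clusters -0.18 for Slc1a3 and 0.53 for Glul. By mitochondrial share, added after seeing the data, Slc17a6 gave 0.69 (up to 5%) and 0.72 (7.5 to 10%), Slc17a7 -2.80 and, at 5 to 7.5%, 0.22, Slc1a2 -0.26 and -0.84, Slc1a3 -0.10, -0.39 and -0.96, and Glul 0.66, 0.20 and -0.019. The share of projection neuron-like cells with Slc17a6 differed by 3.18 points after thinning to 2000 UMIs and by 12.5 without thinning, and that with Slc17a7 by -1.43 and -4.62. Without thinning the glial share differed by -4.63 points for Slc1a2 and -0.57 for Slc1a3, and the astrocyte-like share with Glul by -1.02. In the stricter cells signs also changed for Slc17a6 in layer 6-like cells (1.51), Glul in Cajal-Retzius-like cells (0.49), Slc1a3 in layer 6-like (0.77) and intermediate progenitor-like cells (0.078) and Slc1a2 in GABAergic neuron-like cells (0.13), and with 1 more marker for Slc17a6 in intermediate progenitor-like cells (0.039). The causes were not tested. Few UMIs limit the precision, with 131 to 365 of Slc17a7 in upper layer-like cells.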

Other observations

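Some groups are not described above, or only in part. The 37 WT ependymal-like cells had Slc1a3 at 210 CPM, Slc1a2 at 69.3 and Glul at 110, and the 8 cKO cells had 311, 65.0 and 274. Fibroblast-like cells, 3 in WT and 1 in cKO, had 37 and 11 UMIs of Slc1a3, or 621 and 910 CPM, with no UMI of Slc1a2. Cells that led in no single list (101 and 54) had Slc1a3 at 433 and 446 CPM, Slc1a2 at 139 and 109, Glul at 243 and 319 and Slc17a6 at 36.5 and 51.6, with 6 and 10 UMIs of Slc17a7. The 3 WT and 5 cKO granulocyte-like cells had 1 and 21 UMIs of Slc1a3 and 0 and 22 of Glul. Cells that met no list, 552 in WT and 783 in cKO with median depths of 1994 and 2378 UMIs, had Slc17a6 at 65.9 and 56.3 CPM, Slc17a7 at 14.4 and 7.43, Slc1a3 at 84.7 and 42.1 and Glul at 73.3 and 60.0. Cycling GABAergic-like cells (204 and 95) had Slc1a3 at 131 and 96.9 CPM, above the 25.2 and 10.3 of the non-cycling ones, and Glul at 106 and 115 CPM.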
